A study of Glycine max with 6 samples.

Results

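Phenylalanine ammonia-lyase (PAL) and cinnamate 4-hydroxylase (C4H) are the enzymes at the entry of the phenylpropanoid pathway. Expression of 8 PAL genes and 2 C4H genes was examined in soybean leaves of 2 ages. These 10 genes, of the 56044 in the count table, were taken by identifier from a given list of PAL and C4H genes. No threshold on their values was used, but they were chosen with earlier results of these data known. The chromosome of each is read from its identifier. The leaves came from greenhouse-grown wild-type plants of the cultivar BR16, at 20 days after germination (DAG) and at 80 DAG, with biological triplicates at each age. According to the study's methods, the disks were cut from the middle leaflet of the third and of the seventh trifoliate leaf, at vegetative stage V3 and at reproductive stage R7, when pods begin to ripen. The deposited design text calls both ages vegetative. The paper compares the 2 ages to study natural leaf senescence, and describes the contrast as the onset of senescence. Senescence of the leaves was not checked here. Plant age and developmental stage changed together, and leaf position may have as well, so that they cannot be told apart.

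PAL removes the amino group of phenylalanine, giving trans-cinnamic acid and free ammonia. C4H, a cytochrome P450 enzyme of the endoplasmic reticulum, then hydroxylates cinnamic acid to p-coumaric acid. Lignin, flavonoids and, in legumes, the isoflavonoids that serve as phytoalexins are made from this product. PAL is also known for being induced by wounding, pathogens and ultraviolet light in leaves of many plants.

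The libraries held 10758425 to 15883253 raw counts, with 36691 to 39834 genes detected in each. Expression is given as CPM, the count of a gene scaled to the same total in each library after adjusting the totals with edgeR's TMM factors. CPM is not corrected for gene length, and lengths were not used here, so levels are compared between ages and libraries and not between genes. Replicate 1 of 20 DAG and replicate 2 of 80 DAG were the libraries farthest from the others of their age over all genes. The root mean square difference of log2 CPM was 0.72 and 0.93 for the former against 0.51 between the remaining 20 DAG libraries, and 0.65 and 0.68 for the latter against 0.43 between the remaining 80 DAG libraries. In replicate 2 of 80 DAG, the 10 most abundant genes took 45.0% of the counts, against 33.3% to 36.9% in the other 5 libraries. The tissue label was not checked against marker genes, because the tables used here give no names for the row identifiers.

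Of the 10 genes, 9 passed edgeR's filter on low counts, namely all 8 PAL genes and the C4H gene Glyma.14G205200. At an adjusted p under 0.05 with no fold change minimum, 6 of the 9 were up-regulated at 80 DAG, whereas 23.1% of all 30058 tested genes were. A further 2 of the 9 were down-regulated, against 26.0% of all tested genes. All 8 of these were PAL genes, and the C4H gene was not past the threshold. The median log2 fold change was 1.78 over the 8 PAL genes and −0.02 over all tested genes. In 8 of the 9, the values at 20 and 80 DAG did not overlap, which was also the case for 60.8% of all tested genes. Since the genes were chosen with earlier results known, these comparisons with all tested genes are descriptions only. The tests are those of the model fitted across all genes, since permuting 3 against 3 libraries could reach no exact p smaller than 0.1. In bulk leaf RNA, more cells of a type and more RNA per cell cannot be told apart.

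**Figure D1:**
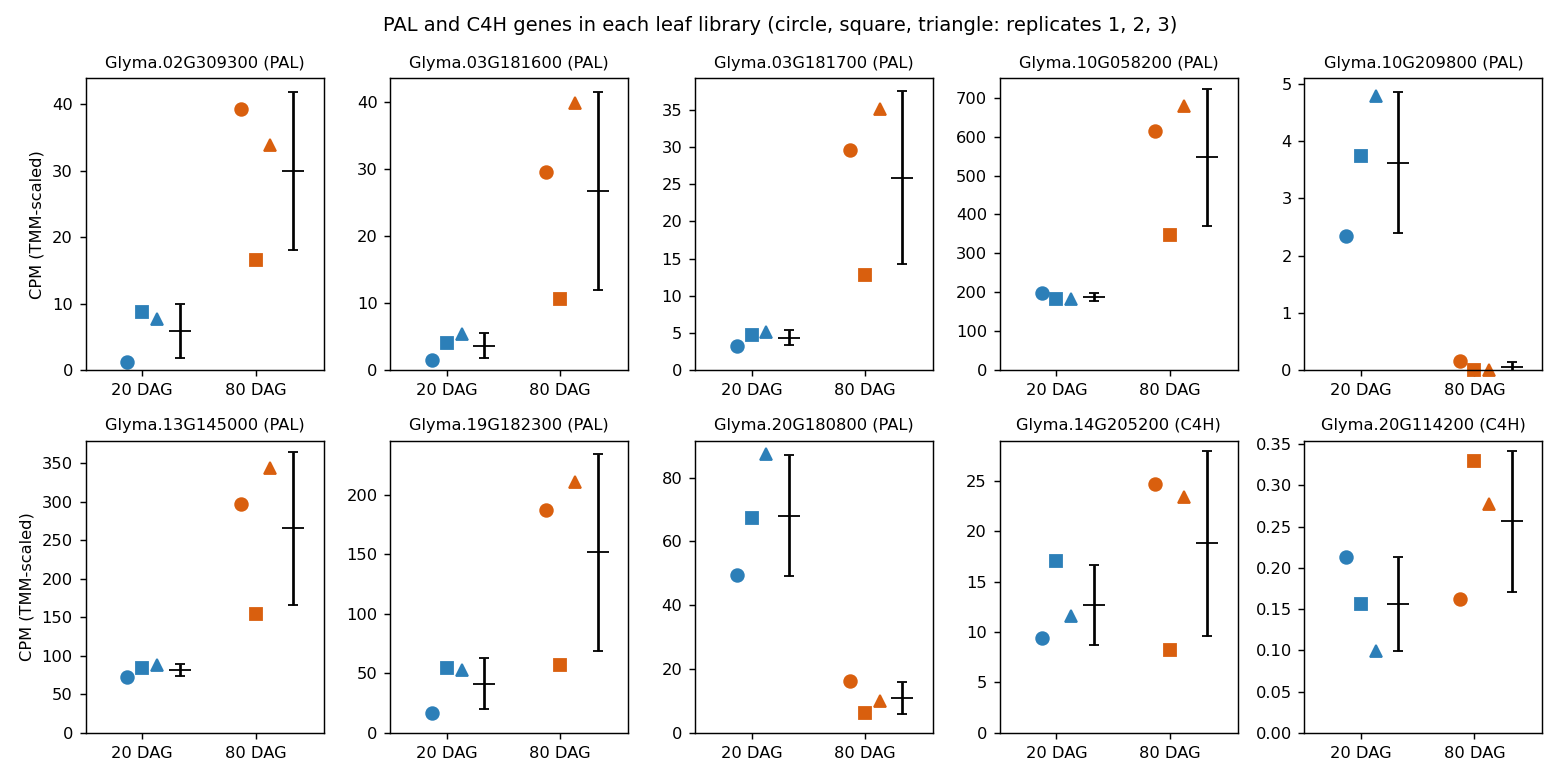
Expression of the 8 PAL and 2 C4H genes, one panel a gene, in TMM-scaled CPM on linear axes that start at 0 and differ between panels; blue symbols are the 3 libraries of 20 DAG, orange symbols those of 80 DAG, and black bars the mean ± SD. In 6 PAL panels every orange symbol lies above every blue one, in Glyma.10G209800 and Glyma.20G180800 every orange symbol lies below, and in both C4H panels the ages overlap.

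The 2 PAL genes with the most counts were up-regulated. Glyma.10G058200, on chromosome 10, had 199, 183 and 183 CPM in the libraries of 20 DAG and 613, 348 and 679 CPM in those of 80 DAG. The lowest library of 80 DAG was thus 1.74-fold above the highest of 20 DAG. Its log2 fold change was 1.54 ± 0.30 (SE; edgeR adjusted p = 0.00507), a 2.90-fold rise with a 95% interval of 1.78-fold to 4.74-fold. The libraries of 20 DAG lay close together, and at 80 DAG replicate 2 lay well below the other libraries.

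Glyma.13G145000, the PAL gene on chromosome 13, had 72.9, 83.9 and 88.5 CPM at 20 DAG. At 80 DAG it had 298, 155 and 344 CPM. Every library of 80 DAG was above every library of 20 DAG, and replicate 2 was again the lowest of its age. It rose 3.25-fold, with a 95% interval of 1.92-fold to 5.48-fold and an SE of 0.32 on the log2 scale (edgeR adjusted p = 0.00448). The counts of Glyma.10G058200 and Glyma.13G145000 kept a similar proportion in every library. The former had 1.97 to 2.25 times the counts of the latter at 80 DAG, and 2.06 to 2.73 times at 20 DAG.

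Glyma.19G182300, on chromosome 19, had 16.8, 54.9 and 52.7 CPM at 20 DAG and 187, 57.1 and 211 CPM at 80 DAG. Here the ages only just separated, since replicate 2 of 80 DAG was 1.04-fold above the highest library of 20 DAG. The log2 fold change was 1.87 ± 0.60 (SE; edgeR adjusted p = 0.0366), with a 95% interval of 1.37-fold to 9.76-fold. Leaving out any single library other than replicate 2 of 80 DAG ended this call. The adjusted p was 0.0587 without replicate 1 of 20 DAG, 0.0548 without replicate 2 and 0.0784 without replicate 3. It was 0.0978 without replicate 1 of 80 DAG and 0.107 without replicate 3, and limma-voom gave 0.0548 on all libraries. Without replicate 2 of 80 DAG it was 0.0107. The log2 fold change was upward in each of these fits, from 1.49 to 2.27.

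The other 3 up-regulated PAL genes had few counts at 20 DAG. Glyma.03G181600 and Glyma.03G181700 have consecutive identifiers on chromosome 3. In the 20 DAG libraries, Glyma.03G181600 was covered by 15, 52 and 54 counts, and in the 80 DAG libraries by 544, 130 and 576 counts. Its expression was 3.68 ± 1.92 CPM at the younger age and 26.7 ± 14.8 CPM at the older (SD, n = 3 each), and the lowest old-leaf library was 1.98-fold above the highest young-leaf library. Its log2 fold change of 2.85 ± 0.58 (SE; edgeR adjusted p = 0.00600) was the highest of the tested members, a rise of 7.22-fold with a 95% interval of 2.81-fold to 18.5-fold.

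Glyma.03G181700 had 3.19, 4.75 and 5.09 CPM at 20 DAG and 29.6, 12.8 and 35.2 CPM at 80 DAG. Its log2 fold change was 2.57 ± 0.40 (SE; edgeR adjusted p = 0.00201), and the lowest library of 80 DAG was 2.52-fold above the highest of 20 DAG. Counts of the 2 neighbouring genes were of similar size, with 0.833 to 1.14 counts of Glyma.03G181600 for each count of Glyma.03G181700 at 80 DAG and 0.5 to 1.06 at 20 DAG. How reads that fit both of 2 similar genes were assigned is not given in the sources used here, so the split of counts between PAL genes of similar sequence is uncertain.

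Glyma.02G309300, on chromosome 2, had 1.28, 8.72 and 7.69 CPM at 20 DAG and 39.4, 16.6 and 34.0 CPM at 80 DAG. Replicate 1 of 20 DAG held 12 counts of this gene, and the other libraries of that age held 112 and 77. The log2 fold change was 2.33 ± 0.62 (SE; edgeR adjusted p = 0.0180), a 5.03-fold rise with a 95% interval of 1.83-fold to 13.9-fold. The call was lost without replicate 3 of 20 DAG (adjusted p = 0.0510), without replicate 1 of 80 DAG (0.0588) and without replicate 3 of 80 DAG (0.0521), with the log2 fold change between 2.10 and 2.55 in these fits.

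The other 2 PAL genes changed in the opposite direction. For Glyma.20G180800, on chromosome 20, the young leaves gave 466, 866 and 875 counts and the old leaves gave 301, 76 and 145. This corresponds to 49.6, 67.4 and 87.3 CPM against 16.3, 6.25 and 10.1 CPM, so that the lowest library of 20 DAG was 3.04-fold above the highest of 80 DAG. Its log2 fold change was −2.64 ± 0.39 (SE; edgeR adjusted p = 0.00155), a 6.23-fold decrease with a 95% interval of 3.31-fold to 11.7-fold. The call held in each of the 14 alternative fits, with log2 fold changes from −3.04 to −2.36.

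Glyma.10G209800, the second PAL gene on chromosome 10, had 22, 48 and 48 counts at 20 DAG. At 80 DAG it had 3 counts in replicate 1 and none in the other libraries, where 3 counts would be 0.247 and 0.208 CPM. Pooled over the libraries of each age, 118 counts against 3 give a ratio of 54.9, with a 95% counting interval of 18.3 to 270 (exact, counting error only). No library of 80 DAG reached the level of any library of 20 DAG. It was down-regulated (adjusted p = 0.000874 in edgeR), and its fitted log2 fold change of −5.60 depends on the prior count that the model adds to genes near 0. Without replicate 1 of 80 DAG, which held all 3 counts, the fitted value was −8.41. Transcripts below this limit would not be detectable at 80 DAG.

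**Figure D2:**
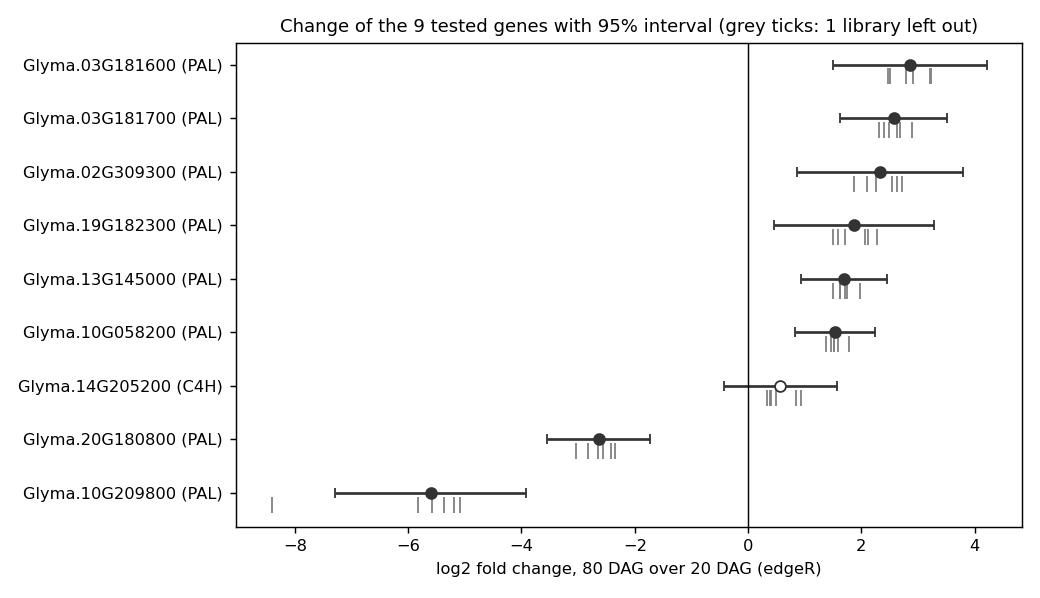
Log2 fold change from 20 to 80 DAG (edgeR) of the 9 tested genes, with 95% intervals as bars, filled circles for an adjusted p under 0.05 and an open circle above it; grey ticks give the values with 1 library left out. The 6 up-regulated PAL genes lie between 1.54 and 2.85, Glyma.20G180800 and Glyma.10G209800 lie at −2.64 and −5.60, and the interval of the C4H gene Glyma.14G205200 includes 0. The value and interval of Glyma.10G209800, with 3 counts in all at 80 DAG, depend on the prior count that the model adds.

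No change was called for the only C4H gene that was tested. Glyma.14G205200, on chromosome 14, was covered by 88, 219 and 116 counts in young leaves and by 455, 100 and 338 in old leaves, or 12.7 ± 3.95 against 18.8 ± 9.16 CPM (SD, n = 3 each). Replicates 1 and 3 of 80 DAG were above all libraries of 20 DAG, and replicate 2 was below all of them. The unadjusted p of edgeR was 0.222, and DESeq2 and limma-voom did not call it either (adjusted p = 0.331 and 0.448). The log2 fold change was 0.57 ± 0.42 (SE; edgeR adjusted p = 0.303), and its 95% interval of 0.741-fold to 2.97-fold includes both no change and a rise like that of Glyma.10G058200. Without replicate 2 of 80 DAG, the log2 fold change was 0.93 and past the threshold (adjusted p = 0.0295).

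Glyma.20G114200, the C4H gene on chromosome 20, was near the limit of detection. The young leaves gave 2, 2 and 1 counts and the old leaves 3, 4 and 4, and it did not pass the filter on low counts. The pooled ratio of 80 to 20 DAG was 1.58, with a 95% counting interval of 0.505 to 5.79 (exact, counting error only). No change of this gene was detected: in the fit without a filter, its log2 fold change was 0.69 ± 0.71 (SE; edgeR adjusted p = 0.472). In the RefSeq table for the assembly Glycine_max_v4.0, C4H symbols belong to 1 gene on chromosome 2 and 1 on chromosome 20, and none is on chromosome 14. The table lists 8 genes with PAL symbols, on the same chromosomes and in the same number on each as the 8 PAL genes here. It does not hold the identifiers of the count table, so 0 of the 10 genes could be given a symbol, and a C4H gene on chromosome 2 was not analysed here.

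Summed over the 8 genes, PAL expression was 347, 410 and 434 CPM at 20 DAG and 1213, 606 and 1353 CPM at 80 DAG. All libraries of 80 DAG were above those of 20 DAG, and the mean rose 2.66-fold, from 397 ± 45.0 to 1057 ± 397 CPM (SD, n = 3 each; a description without a test). The 2 C4H genes together had 9.58, 17.2 and 11.7 CPM at 20 DAG and 24.9, 8.56 and 23.7 CPM at 80 DAG, where the ages overlapped. The ratio of PAL to C4H counts within a library was 36.2, 23.9 and 37.2 at 20 DAG and 48.8, 70.8 and 57.1 at 80 DAG. This ratio does not depend on the scaling of the libraries, and all its values of 80 DAG were above those of 20 DAG. Its C4H counts were nearly all from Glyma.14G205200 (88 of 90 in replicate 1 of 20 DAG, 100 of 104 in replicate 2 of 80 DAG). In effect it sets PAL against 1 gene, without the C4H gene that RefSeq places on chromosome 2. The ratio was highest in replicate 2 of 80 DAG, the library with the lowest sums of that age.

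**Figure D3:**
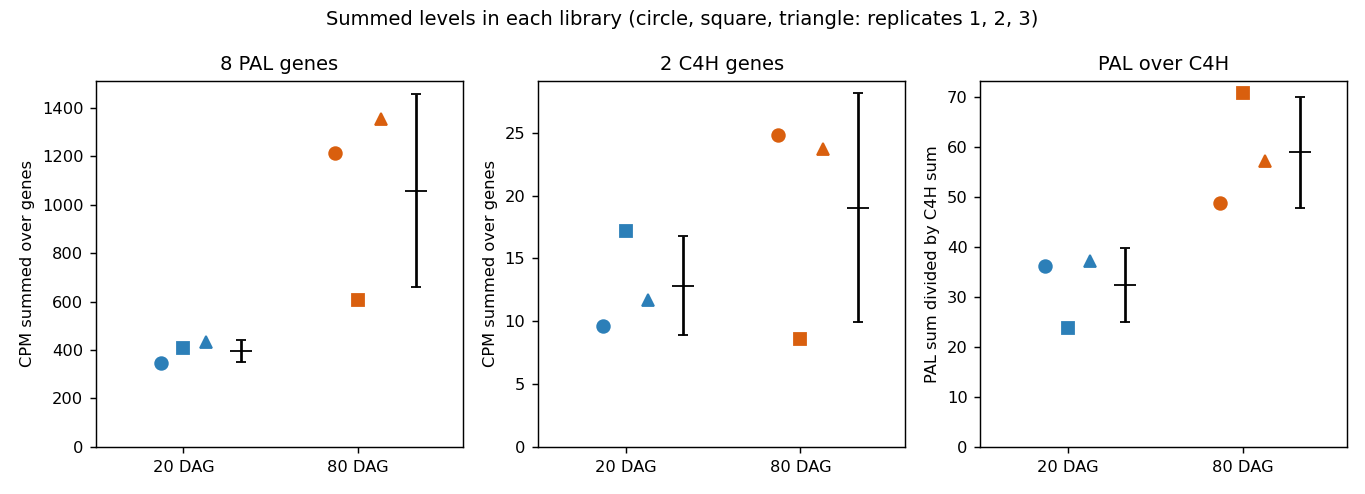
Summed CPM of the 8 PAL genes and of the 2 C4H genes, and the PAL sum divided by the C4H sum, for each library; blue symbols are 20 DAG, orange symbols 80 DAG, black bars the mean ± SD, and axes start at 0. The PAL sums of 80 DAG (606 to 1353 CPM) lie above those of 20 DAG (347 to 434 CPM), the C4H sums overlap, and the ratios separate (23.9 to 37.2 against 48.8 to 70.8). The C4H sums come nearly all from Glyma.14G205200.

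The make-up of the PAL counts changed with age. Glyma.20G180800 supplied 14.3%, 16.4% and 20.1% of all PAL counts at 20 DAG, but 1.35%, 1.03% and 0.743% at 80 DAG. Together with Glyma.10G209800 it went from 17.8% ± 3.16 to 1.05% ± 0.309 (SD, n = 3 each). The share of Glyma.13G145000 was between 20.4% and 21.0% at 20 DAG and between 24.5% and 25.5% at 80 DAG, with no overlap. Glyma.10G058200 supplied 42.1% to 57.4% at 20 DAG and 50.2% to 57.4% at 80 DAG, and these ranges overlapped. Glyma.02G309300, Glyma.03G181600 and Glyma.03G181700 each supplied a larger share in every library of 80 DAG than in any of 20 DAG, up to 3.25%, 2.95% and 2.60%. Shares have a fixed sum, so the fall of Glyma.20G180800 and Glyma.10G209800 by itself raises those of the others. The ratio of Glyma.10G058200 to Glyma.13G145000 counts overlapped between the ages (2.06 to 2.73 at 20 DAG, 1.97 to 2.25 at 80 DAG). That of Glyma.02G309300 to Glyma.10G058200 only just separated (0.00641 to 0.0477 against 0.0478 to 0.0642). In terms of counts within a library, there were 2.09 to 4.02 counts of Glyma.10G058200 for each count of Glyma.20G180800 at 20 DAG and 37.6 to 67.6 at 80 DAG. Shares of counts are not corrected for gene length, which is the same for a gene at both ages.

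**Figure D4:**
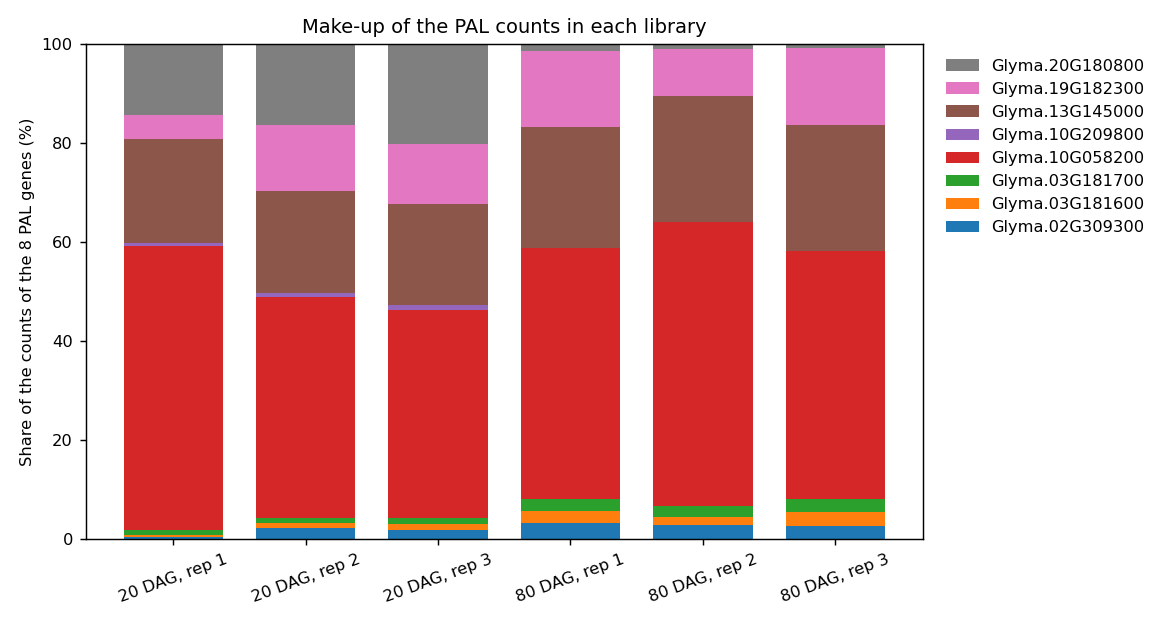
Share (%) of each of the 8 genes in the PAL counts of each library, as stacked bars that add up to 100%. The grey segment of Glyma.20G180800 at the top shrinks from 14.3% to 20.1% at 20 DAG to 0.743% to 1.35% at 80 DAG, and Glyma.10G058200 (red) is the largest segment in all 6 libraries.

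The replicates of one age were not alike for these genes. Replicate 2 was the lowest 80 DAG library, or tied for it, in all 9 tested genes, with a tie at 0 counts with replicate 3 for Glyma.10G209800, and in 36.5% of all tested genes. Replicate 1 was the lowest 20 DAG library in 8 of the 9, with Glyma.10G058200 as the exception, and in 39.8% of all tested genes. Between the lowest and the highest library of 80 DAG, expression differed 1.95-fold for Glyma.10G058200 and 3.73-fold for Glyma.03G181600. At 20 DAG, the difference was 1.09-fold for Glyma.10G058200 and 6.82-fold for Glyma.02G309300. Over all genes, replicate 2 of 80 DAG was also nearer to each 20 DAG library (root mean square difference of log2 CPM 1.58 to 1.84) than the other libraries of 80 DAG were (1.67 to 2.07). The part of these library differences in the PAL and C4H values was not tested. Leaving out replicate 1 of 20 DAG and replicate 2 of 80 DAG together was a choice made after seeing the data. In that fit, the same 6 PAL genes were up-regulated and both down-regulated PAL genes remained so. Glyma.14G205200 was up-regulated as well (log2 fold change 0.74, adjusted p = 0.0195 in edgeR). Of all 30958 genes tested in that fit, 15779 were called in either direction, against 14758 of 30058 with all libraries.

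The members were also placed among all tested genes. A higher log2 fold change than that of Glyma.03G181600 was found for 4.26% of the tested genes, and than that of Glyma.10G058200 for 11.4%. A lower one than that of Glyma.20G180800 was found for 8.65%. Glyma.10G209800 was not ranked, since its fitted value depends on the prior count. For Glyma.14G205200, 27.1% of the tested genes had a higher value. The middle 50% of all tested genes lay between −0.80 and 0.65.

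**Figure D5:**
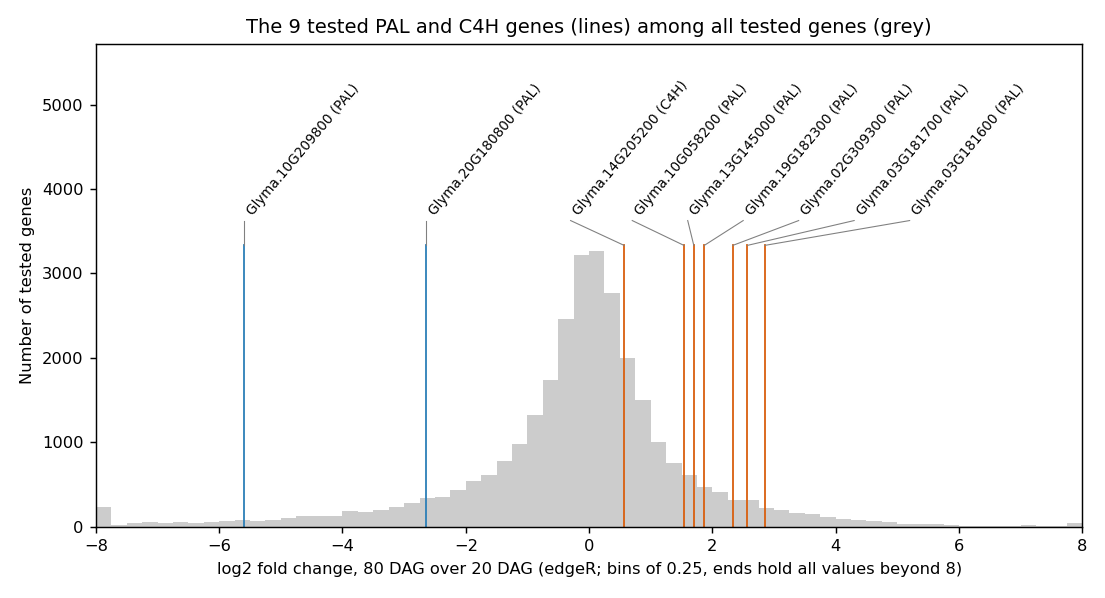
Number of tested genes (grey bars) by log2 fold change from 20 to 80 DAG (edgeR; bins of 0.25, with values beyond 8 in the outermost bins), and the values of the 9 tested PAL and C4H genes as lines, orange above 0 and blue below. The up-regulated PAL genes lie right of the bulk of the distribution, between 1.54 and 2.85, and Glyma.14G205200 lies within it at 0.57.

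Similarity of pattern was measured as the root mean square difference of log2 CPM, centred on the mean of the 6 libraries. The genes nearest to Glyma.10G058200 outside the PAL and C4H list were Glyma.08G246300 and Glyma.16G201500, with a difference of 0.113 and 0.114, and the tables used here do not name them. Among the members, Glyma.13G145000 was the nearest, at 0.152, and 18 of all tested genes were closer. Glyma.03G181700 followed at 0.51, Glyma.14G205200 at 0.62 and Glyma.19G182300 at 0.68, with 3583, 6545 and 8515 tested genes closer. Glyma.03G181600 was at 0.80 and Glyma.02G309300 at 0.96, with 12682 and 17778 closer. The down-regulated Glyma.20G180800 and Glyma.10G209800 were the farthest, at 2.10 and 2.21. For Glyma.14G205200 the nearest gene outside the list was at 0.106 and was not called. These distances are descriptions over 6 libraries that share 2 ages.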

How the data were processed

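The authors prepared stranded, paired-end Illumina libraries from Trizol-extracted total leaf RNA after depletion of ribosomal RNA. The deposited values are raw whole-number counts per gene, with identifiers of Wm82.a2.v1. The submitters' processing notes name CASAVA 1.7, Bowtie2 and DESeq2. The counting program, and whether it used strand, are not given in the sources used here, so reads of similar or overlapping genes are of uncertain assignment. All 6 columns matched a sample title.

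The whole table was fitted with edgeR 4.0.16 in R 4.3.3 (TMM factors, filterByExpr, quasi-likelihood F test on age, Benjamini-Hochberg over 30058 genes, adjusted p under 0.05). SE was obtained from the log2 fold change and its F statistic, and intervals use the fit's degrees of freedom. The fit was first run on simulated counts with 200 changed genes. Far more genes were called in the real data (14758), so that run does not measure false calls here. DESeq2 1.42.0 and limma-voom (limma 3.58.1) were alternatives. Log2 CPM for comparing patterns used a pseudocount of 0.5 CPM.

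No pairing of libraries by replicate number was seen, although a check on 3 libraries an age cannot exclude one. The correlation of deviations from the age means was −0.24, −0.33 and 0.08 for numbers 1 to 3. Members and lists were chosen with earlier results of these data known. All members are named. Lists of further pathway genes and of markers, which were to be taken from product names, could not be formed, because the RefSeq table used here (Glycine_max_v4.0) pairs no names with these identifiers. For the same reason only 2 of the genes similar in pattern are printed.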

Additional observations from a re-analysis of the deposited data

How the results depend on the processing

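The number of PAL and C4H genes called higher at 80 DAG was 6, and 4 to 7 under the alternatives. It was 4 at an adjusted p under 0.01, 5 with limma-voom, and 4 to 7 with 1 library left out. With the replicate number as a block, 4 were called higher and 2 lower. The calls of Glyma.02G309300 (adjusted p = 0.0621) and Glyma.19G182300 (0.103) were lost there. Libraries with the same number did not deviate together, and 0 of the 3 numbers had its highest correlation with its own counterpart. With so few libraries, this does not exclude a pairing. The number called lower was 2 throughout, except for 1 with at least 10 counts in every library, a filter that leaves out Glyma.10G209800. Over all genes, 14758 were called, 9492 at an adjusted p under 0.01, and 10744 to 16848 under the other alternatives. Scaling by library size alone shifted the all-gene median from −0.02 to 0.21 (log2) and changed neither direction nor call of any of the 9 tested genes. In no alternative did the sign of a tested member's change turn. Of 125 single-gene values under alternatives, 112 stayed on their side of the threshold, 11 lost it and 2 passed it. The alternatives planned for other pathway genes were not run, since that list could not be formed. Depth limits Glyma.20G114200, with 1 to 4 counts a library, and the 80 DAG level of Glyma.10G209800.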
